A study of Mus musculus with 16 samples.

Results

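The transcriptome of untreated wild-type cells was described from the 4 WTVeh libraries among the 16 libraries of the study, that is, from the samples whose titles give the wild-type genotype, the vehicle and a replicate number between 1 and 4. The study set primary hippocampal cultures of Shank3∆11(−/−) mice (KO), which carry a deletion in the gene of a postsynaptic scaffold protein, against cultures of wild-type C57BL/6 mice (WT), each treated with Li (KOLi, WTLi) or with vehicle (KOVeh, WTVeh). WTVeh carried neither the deletion nor Li and served as the baseline of the study. Cells were prepared from hippocampi of newborn pups, which were pooled for each culture after the meninges had been removed, were kept for 14 days in culture by the design text and received water as vehicle from day 9. The labels instead give a different day for each of the 16 samples, counting up along the list, with 14, 18, 22 and 26 days for replicates 1, 2, 3 and 4 of WTVeh, and which of the statements holds was not tested. The replicate number was taken as the number of the experiment. Replicates 1, 2 and 3 were sequenced in batch 1 and replicate 4 in batch 2, so that for replicate 4 the culture and the sequencing batch cannot be told apart. Whether the 4 libraries came from separate cultures is not stated in the labels, and the spread given here is the spread between these 4 samples.

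A primary culture of this kind holds the cells that survive dissociation and those that divide afterwards. Pyramidal neurons and interneurons stop dividing before birth and rebuild dendrites and synapses in the dish, while astrocytes, oligodendrocyte precursors, microglia, ependymal cells and fibroblasts of the coverings can be carried along and, except for ependymal cells, can multiply. Each cell type is known by genes for its own tasks, such as synaptic vesicle proteins in neurons, glutamate uptake in astrocytes, myelin in oligodendrocytes and motile cilia in ependymal cells. Levels are given as transcripts-per-million values (TPM), which divide the reads of a gene by its exon length and scale each library to the same total, so that levels of different genes can be compared.

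Total counts of the WTVeh libraries were 26311343, 21178969, 25188850 and 35188300 in replicates 1, 2, 3 and 4. Of 22046 protein-coding genes, 13192 (59.8%) were at 1 TPM or more in all 4 libraries, 9908 had a mean of 10 TPM or more, 1884 of 100 TPM or more and 72 of 1000 TPM or more, while 4063 had no count in any of them. The median of the mean level over all protein-coding genes was 6.47 TPM. Genes of mitochondrial DNA made up 7.65% to 9.34% of the TPM. As a check of the genotype labels, Shank3, the gene that the KO lacks in part, had 34.2, 63.3, 34.5 and 36.3 TPM in the KOLi libraries and 33.2, 63.5, 34.8 and 37.1 TPM in the KOVeh libraries of replicates 1, 2, 3 and 4, against 91.5, 77.0, 86.7 and 102 TPM in the WTLi libraries and 82.3, 65.0, 94.9 and 104 TPM in the WTVeh libraries. Both libraries labelled KO of replicate 2 stood apart from the other KO libraries and came close to the lowest WT library, and the WTVeh library of replicate 2 was that lowest one. The KO label of this pair is thus in doubt, and whether it holds was not tested. The WT values did not overlap with the KO values. KO libraries entered none of the results on WTVeh below except where they are named or where a fit on all 16 libraries is given. That fit includes the doubtful pair and takes the same replicate effect for both genotypes. Its results can thus differ from those on the WT libraries through the libraries labelled KO.

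Marker genes of neurons, astrocytes, fibroblasts and dividing cells were present in every library, whereas the myelin marker was high in replicate 2 only. Gfap, which encodes the intermediate filament of astrocytes (chr11:102887336-102900912, minus strand, GRCm38), was the highest of the 7 markers, with 3448, 3919.8, 2461 and 2033 TPM in replicates 1, 2, 3 and 4. Snap25, for the vesicle fusion protein of nerve terminals (chr2:136713453-136782428, plus strand), had 449, 391, 504 and 296 TPM. Map2, for the microtubule protein of dendrites (chr1:66175273-66442583, plus strand), had 189.9, 163, 235 and 193 TPM. Both neuronal markers were thus highest in replicate 3, and Map2 was the steadiest of the 7, with a mean of 195 ± 29.5 TPM (SD, n = 4).

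Slc1a2, for the main glutamate transporter of astrocytes (chr2:102658659-102790784, plus strand), had 241, 166, 327 and 175 TPM, again highest in replicate 3, whereas Gfap was highest in replicate 2. Col1a1, for the chain of fibrillar collagen that fibroblasts make (chr11:94936224-94953042, plus strand), had 107, 137, 134 and 218 TPM. Top2a, for the topoisomerase of dividing cells (chr11:98992943-99024189, minus strand), had 15.8, 20.4, 14.1 and 24.5 TPM. Both were highest in replicate 4. Mbp, which encodes myelin basic protein on chromosome 18, had 16.8, 79.7, 14.0 and 10.3 TPM. Replicate 2 alone was high, and the other 3 libraries lay between 10.3 and 16.8 TPM.

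**Figure D1:**
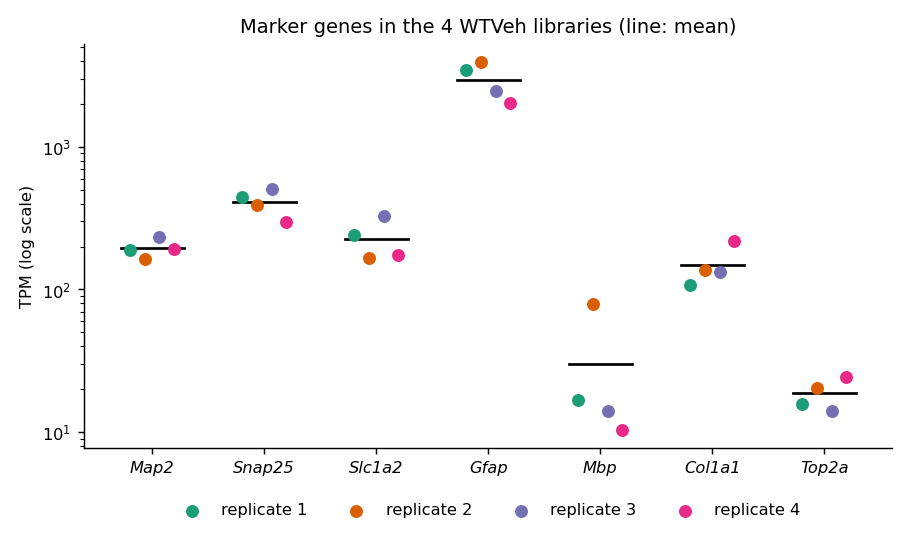
TPM of the 7 marker genes (x axis) on a log scale (y axis) in the 4 WTVeh libraries, with points coloured by replicate number and a line at the mean. Gfap lies above the others in every library, Map2 has the narrowest range, and the point for Mbp in replicate 2 (79.7 TPM) stands far above its other points.

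The most abundant nuclear protein-coding transcripts came from general cell maintenance, the cytoskeleton and astrocytes. Fth1, for the heavy chain of the iron store ferritin, led with 5672, 7872, 4973 and 5821 TPM in replicates 1, 2, 3 and 4. Eef1a1, which brings amino acid-loaded transfer RNA to the ribosome, averaged 4236 ± 622 TPM (SD, n = 4), and Cpe, which trims peptide hormones and neuropeptides, 4111 ± 219 TPM. Apoe, the lipid carrier secreted by astrocytes, had 4080.4, 4758, 3047 and 4359.9 TPM. Gfap, Cst3, for a secreted protease inhibitor, with 2689.5 ± 370.4 TPM, and Mt1, for a metal-binding metallothionein, with 2792 ± 698 TPM, also stood among the 15 highest. The cytoskeleton was represented by Tuba1a (3789 ± 502 TPM), Tubb2a (2638 ± 335 TPM) and the actin-binding peptide Tmsb4x (3008 ± 221 TPM), and calcium signalling by the calmodulin genes Calm3 (2954 ± 104 TPM) and Calm2 (2769 ± 476 TPM). Selenow, for a small selenoprotein, Psap, for the precursor of the saposins of the lysosome, and Gstm1, for a glutathione transferase, completed this group at means of 3524, 2508 and 2467 TPM.

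Calm3 and Cpe varied little, by 3.52% and 5.33% of the mean (CV), while Mt1 and Gfap varied by 25.0% and 29.3%. Mitochondrial transcripts were still more abundant. mt-Co1, for a subunit of cytochrome c oxidase, averaged 20958 ± 2925 TPM, mt-Cytb 13026 ± 901 TPM and mt-Nd1 9665 ± 504 TPM. The highest entry of any kind was Gm23935, an annotated microRNA gene of 57 bases on chromosome 16, with 34654, 27216, 24464 and 33965 TPM. Division by so short a length makes TPM large, and its 2.45% to 3.47% share of the scale lowers all other TPM of a library by that part.

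To compare cell classes, 383 genes in 22 lists were followed, and 308 of them were at 1 TPM or more in all 4 libraries. Summed over their genes, the astrocyte list (16082 ± 2329 TPM, SD, n = 4) and the pan-neuronal list (8848 ± 1212 TPM) dominated, and the lists for red blood cells (1.38 ± 0.562 TPM) and for other brain regions (21.0 ± 6.03 TPM) were at the bottom. The lists differ in length, so that a sum shows the variation of a class over the libraries better than its size. The level of a class reflects both the number of its cells and the RNA in each cell, and fewer cells and less RNA per cell cannot be told apart in bulk RNA.

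Whether a gene differed between replicate numbers by more than between libraries of the same number was tested on the 8 WT libraries, since each number then had 2 libraries, WTVeh and WTLi. By edgeR's quasi-likelihood test of the replicate term, 4147 of 14956 genes (27.7%) were called at an adjusted p under 0.01 and a difference above 1.2-fold between the highest and the lowest number. This share is the background against which the counts of the lists stand. In the contrast of replicate 4 with the mean of replicates 1 to 3, 1924 genes (12.9%) were higher in replicate 4 and 1324 (8.85%) were lower. Here too a difference was weighed against that between the 2 libraries of a number. The spread among replicates 1 to 3 does not enter the SE or p of the contrast. A call therefore does not place replicate 4 outside that spread. Only a gene that reached 15 counts in 2 or more of the 8 libraries entered the test, so a gene could pass through the number in which it was high. Without the libraries of replicate 4 the replicate term called 1350 genes, and without those of replicate 3 2718. Counts of a list are given without a library number where they moved by more than 1.5 times.

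**Figure D2:**
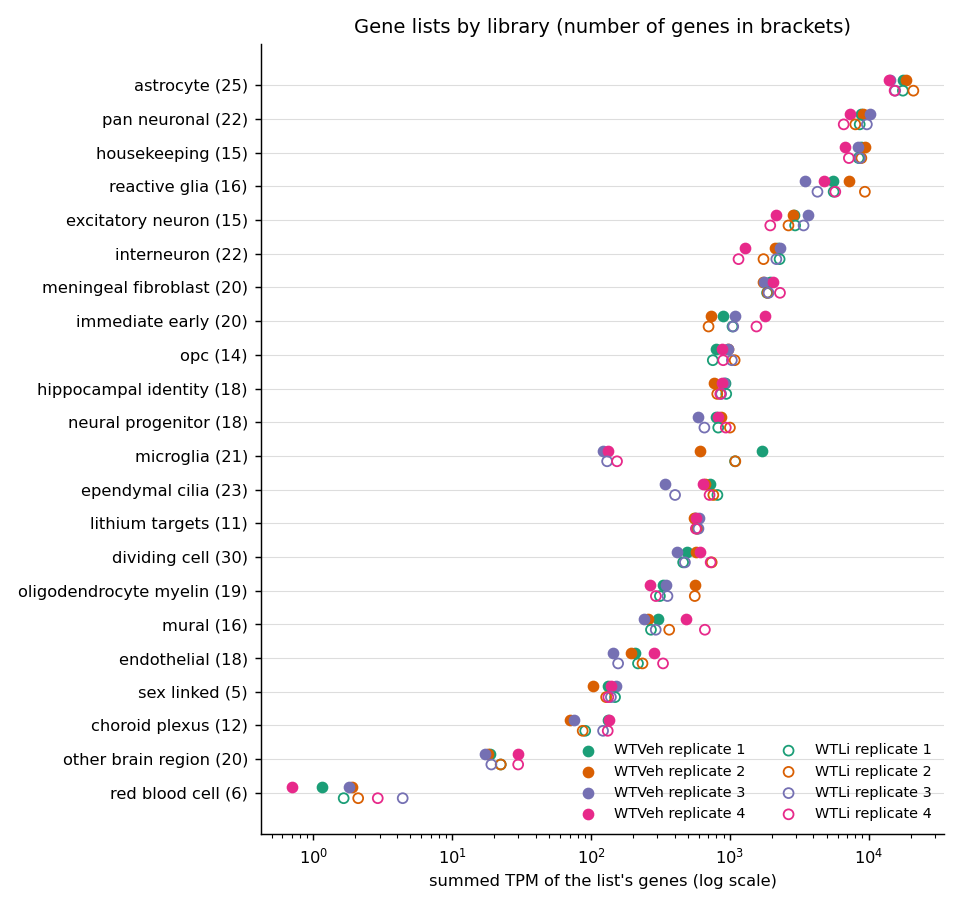
Summed TPM of each gene list (x axis, log scale) in each WTVeh library (filled) and in the WTLi library of the same number (open), coloured by replicate number. Most lists stay within a narrow band, while the microglia list spans 122 to 1711 TPM over the WTVeh libraries, with replicates 1 and 2 above replicates 3 and 4 in both groups.

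All 22 pan-neuronal genes were at 1 TPM or more in all 4 libraries, with a median of 270.4 TPM over the members. Their sum was 8855, 9048, 10219 and 7270.5 TPM in replicates 1, 2, 3 and 4, highest in replicate 3 and lowest in replicate 4. The highest members were Uchl1, for a ubiquitin hydrolase of neurons, with 1583, 1894, 1567 and 1091 TPM, Gap43, for a growth cone protein, with 1148, 1353, 1496 and 869 TPM, and Tubb3, for neuronal β-tubulin, with 848, 1047, 976 and 684 TPM. Thy1, a surface glycoprotein of projection neurons, averaged 630.5 ± 58.9 TPM and Stmn2, a microtubule regulator of growing axons, 594 ± 152 TPM. The lowest were Dcx, for the microtubule protein of young neurons, with 33.5, 31.8, 65.6 and 35.8 TPM, and Elavl4, for a neuronal RNA-binding protein, with 25.8, 20.7, 30.3 and 17.5 TPM.

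In the replicate term, 16 of the 22 genes were called, where the background over all tested genes is 27.7%. Replicate 3 was the highest library for 18 of the 22, whereas 30.4% of all 13192 protein-coding genes at 1 TPM or more were highest there. In the contrast of replicate 4 with the others, 10 genes fell and 0 rose, where the background is 8.85% lower and 12.9% higher. Snap25 fell to 296 TPM in replicate 4, against 449, 391 and 504 TPM in replicates 1, 2 and 3 (log2 fold change -0.58, SE 0.08, adjusted p = 2.71e-04), and Map2 did not pass the test (log2 fold change -0.09, SE 0.08, adjusted p = 0.439). Without replicate 3 the replicate term called 9 and 6 fell, and without replicate 4 it called 7. Replicate 4 was lowest for 12 and replicate 2 for 10 of the 22 genes, compared with 32.6% and 31.9% of all protein-coding genes detected.

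The 15 genes of excitatory neurons were all detected. Nrgn, for the calmodulin-binding neurogranin of dendrites, had 711, 950.3, 898 and 366 TPM, Camk2a, for the abundant kinase of the postsynapse, 790.2, 594, 926 and 552 TPM, and Slc17a7, for the vesicular glutamate transporter, 517, 464, 593 and 467 TPM. Nrgn and Camk2a were lowest in replicate 4, and Slc17a7 passed neither test, although it passed the replicate term without replicate 1 or 2 and in a fit on all 16 libraries, and the contrast without replicate 2. The transcription factors Neurod6 (356, 372, 532 and 259 TPM) and Bhlhe22 (168 ± 30.2 TPM) followed, and Neurog2, of newborn neurons (5.78 ± 2.09 TPM), was among the lowest. Of the 15 genes, 12 were called in the replicate term (background 27.7%), and 6 fell and 2 rose in replicate 4 (background 8.85% and 12.9%). Without replicate 4 the term called 5, and without replicate 2 10 fell.

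The sum of the genes of hippocampal identity was among the steadiest of the list sums, with 921, 768, 907 and 874 TPM in replicates 1, 2, 3 and 4. The single genes were not steadier than others. In the replicate term 7 of 18 were called (3 without replicate 4), where the background is 27.7%. The median range over the numbers was 0.44 on the log2 scale, against 0.42 over all tested genes. Lhx2, a selector of the medial pallium, had 101, 95.5, 117 and 122 TPM. Dkk3, which is known for CA fields in the adult, had 132, 95.8, 68.9 and 132 TPM, Calb1, a calcium buffer of dentate granule and CA1 cells and of some interneurons, 123, 76.4, 98.3 and 73.1 TPM, and Ociad2, a CA1 marker, 87.7, 75.2, 86.6 and 61.4 TPM. Prox1, which marks granule cells of the dentate gyrus, averaged 46.4 ± 9.60 TPM, so that genes of both dentate and CA neurons were represented. Pou3f1, a factor of CA1, averaged 5.69 ± 0.683 TPM, and Tshz2 0.492 ± 0.239 TPM, below 1 TPM in all 4 libraries.

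Genes of interneurons were present down to the rarer classes, and they were lower in replicate 4. All 22 genes were at 1 TPM or more in every library. The sum was 1283 TPM in replicate 4, against 2223, 2121 and 2283 TPM in replicates 1, 2 and 3, and replicate 4 was lowest for 17 of 22 genes, compared with 32.6% of all protein-coding genes detected. In the contrast 13 of 22 fell and 1 rose, where the background is 8.85% lower and 12.9% higher. Sst, for the peptide somatostatin of dendrite-targeting interneurons, fell to 92.6 TPM in replicate 4, against 316, 275 and 236 TPM in replicates 1, 2 and 3 (log2 fold change -1.58, SE 0.09, adjusted p = 1.72e-07). Calb2, for the calcium buffer calretinin, fell to 174 TPM in replicate 4, against 310.4, 532 and 645 TPM in replicates 1, 2 and 3 (log2 fold change -1.45, SE 0.09, adjusted p = 4.91e-07). For both genes replicate 4 lay below every other library, but in a fit on all 16 libraries Calb2 did not pass (log2 fold change -0.53, adjusted p = 0.203). The replicate term called 17 of 22 (background 27.7%), and 4 without replicate 4.

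Gad1, for the enzyme that makes GABA, had 85.0 TPM in replicate 4, against 156, 132 and 134 TPM in replicates 1, 2 and 3. Cck, for the peptide cholecystokinin, which pyramidal cells also express, was the highest of the list at 621, 491, 561 and 453 TPM in replicates 1, 2, 3 and 4 and passed neither test, although it passed the replicate term without replicate 2 or 3 (adjusted p = 2.30e-04 and 0.00591) and on all 16 libraries (0.00199), and the contrast without replicate 2. The lowest were the factors Dlx2 (3.81 ± 1.19 TPM) and Dlx6 (2.98 ± 0.701 TPM). Pvalb, of fast-spiking basket cells, which matures late, had 6.28, 12.7, 4.88 and 1.88 TPM and Vip 12.1, 4.82, 4.74 and 6.95 TPM. Pvalb was highest in replicate 2 and Vip in replicate 1, so that the peptide and calcium-buffer classes did not share 1 order over the libraries.

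Astrocyte genes were at 1 TPM or more in all 4 libraries for 24 of 25 members, with a median of 316 TPM. The exception was Slc7a10, for an amino acid transporter of mature astrocytes, with 0.0659, 1.16, 1.77 and 0.584 TPM in replicates 1, 2, 3 and 4. Below Apoe and Gfap, Sparcl1, a secreted synapse organiser, had 1689, 1407, 1620.0 and 803 TPM, Clu, for the chaperone clusterin, 1088, 1314, 566 and 1274 TPM, and Fabp7, a fatty acid carrier of radial glia and astrocytes, 1161, 1432, 881 and 718 TPM. These did not move together, since Sparcl1 and Fabp7 were lowest in replicate 4 and Clu was lowest in replicate 3. Gjb6, for connexin 30, was the lowest detected gene at 18.8, 15.1, 9.61 and 5.30 TPM.

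Of 25 astrocyte genes, 20 were called in the replicate term (background 27.7%), and 14 fell and 4 rose in replicate 4 (background 8.85% and 12.9%). Without replicate 4 the term called 11, and without replicate 3 0 rose. S100b, for a calcium-binding protein, fell to 23.7 TPM in replicate 4, against 88.1, 83.1 and 76.1 TPM in replicates 1, 2 and 3 (log2 fold change -1.79, SE 0.10, adjusted p = 2.02e-07). Among those that rose were Clu (log2 fold change 0.49, SE 0.06, adjusted p = 1.28e-04) and Mlc1, for a membrane protein of astrocyte end-feet, with 1067 TPM in replicate 4, against 941, 980.4 and 544 TPM in replicates 1, 2 and 3. Both rested on the low replicate 3, without which neither passed (log2 fold change 0.16, adjusted p = 0.164 for Clu and 0.21, adjusted p = 0.0535 for Mlc1), and in a fit on all 16 libraries Clu had a log2 fold change of -0.11 and Mlc1 did not pass (log2 fold change 0.18, adjusted p = 0.445). Aldh1l1, a folate enzyme widely used to mark astrocytes, was the steadiest, at 56.3, 63.5, 61.9 and 58.9 TPM in replicates 1, 2, 3 and 4.

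The sum of the reactive glia genes was lowest in replicate 3 and highest in replicate 2, as was that of the neural progenitor genes. The reactive glia sum was 5571, 7193, 3493 and 4748 TPM in replicates 1, 2, 3 and 4. In the replicate term 15 of 16 genes were called, where the background is 27.7%. Replicate 3 was lowest for 13 of 16 and replicate 2 highest for 12, compared with 25.6% and 23.6% of all protein-coding genes detected. C3, the central complement component, had 281, 575, 25.2 and 209 TPM, a range of 4.60 on the log2 scale over the numbers in the fit (adjusted p = 1.14e-08). Lcn2, for the iron-siderophore binder lipocalin-2, had 92.3, 330.5, 15.9 and 31.0 TPM (adjusted p = 1.39e-07), and Steap4, a metalloreductase, 39.9, 94.5, 8.47 and 17.4 TPM (adjusted p = 7.52e-07). For C3, Lcn2 and Steap4, replicate 2 exceeded every other library and replicate 3 lay below every other.

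Vim, for the intermediate filament of immature and reactive glia and of fibroblasts, had 973, 1350.0, 515 and 1614 TPM, Nes, for nestin, 120.3, 171, 83.2 and 211 TPM, and Serpina3n, a protease inhibitor of reactive astrocytes, 136, 178, 124 and 86.2 TPM. Vim and Nes were highest in replicate 4, where Serpina3n was lowest. At the lower end, Cxcl10, an interferon-induced chemokine, averaged 10.1 ± 5.26 TPM and Timp1, a metalloprotease inhibitor, 9.97 ± 0.921 TPM. Timp1 was the gene of the list that was not called.

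Of the 14 genes of oligodendrocyte precursors, 11 were at 1 TPM or more in all 4 libraries and 3 below 1 TPM in all 4. The list summed to 796, 975, 968 and 872 TPM in replicates 1, 2, 3 and 4. In the replicate term, where the background is 27.7%, 9 of the 13 genes tested were called (5 without replicate 1, 6 without replicate 2, 5 without replicate 3 and 5 without replicate 4). Olig1, a factor of the whole lineage, had 398, 544, 461 and 476 TPM, Olig2 52.9, 82.3, 71.9 and 79.4 TPM and Pdgfra, for the growth factor receptor of precursors, 27.2, 21.1, 20.1 and 19.3 TPM. Bcan and Ptprz1, for a proteoglycan and a phosphatase that astrocytes also make, averaged 168 ± 49.0 TPM and 135 ± 17.4 TPM. Gpr17, of committed precursors, was at 0.239 ± 0.158 TPM, and Neu4 had no count in any library, which allows up to 3 counts, or 0.0853 to 0.142 in counts-per-million values (CPM).

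Of the 19 genes of oligodendrocytes and myelin, 10 were at 1 TPM or more in all 4 libraries. Replicate 2 was highest for 14 of 19 and replicate 4 lowest for 14, compared with 23.6% and 32.6% of all protein-coding genes detected. Mag, for the myelin glycoprotein next to the axon, had 1.91, 12.9, 1.65 and 0.732 TPM in replicates 1, 2, 3 and 4 (adjusted p = 9.22e-07), and Mobp, for a basic protein of myelin, 2.48, 13.5, 2.22 and 0.750 TPM (adjusted p = 4.46e-07). As with Mbp (adjusted p = 2.42e-08), replicate 2 lay more than 3 times above each of the other libraries. Mbp was at 9.42 to 13.8 TPM in the 8 libraries labelled KO, against 15.7, 73.9, 16.7 and 10.3 TPM in the WTLi libraries, so that both WT libraries of number 2 were high and no library labelled KO was, the pair of replicate 2 with a doubtful label included.

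The top of the list had another order. Cldn11, for a tight-junction protein of myelin that meningeal cells also make, had 100.3, 140.2, 146 and 85.7 TPM, Cnp, for a myelin enzyme found in precursors too, 61.8, 76.1, 40.8 and 57.9 TPM, and Nfasc, for the node protein neurofascin, shared with neurons, 48.6, 47.9, 61.9 and 63.8 TPM. Enpp2, for autotaxin, had 48.4, 40.6, 26.0 and 15.5 TPM. Ermn and Opalin, of late oligodendrocytes, were the lowest, at 0.722 ± 0.554 TPM and 0.271 ± 0.161 TPM. In the replicate term 14 of 18 genes were called, where the background is 27.7%.

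Microglia genes had the largest fold between libraries of the 22 list sums. Their sum was 1711, 611, 122 and 132 TPM in replicates 1, 2, 3 and 4, and in the WTLi libraries of the same numbers 1089, 1094, 131 and 154 TPM, so that numbers 1 and 2 were above numbers 3 and 4 in both groups. Of the 20 genes tested, 18 were called in the replicate term, where the background is 27.7%. With 15 counts required in every library, 9 were tested and 7 called, since many members were near the floor in some libraries. Lyz2, for lysozyme of myeloid cells, had 799.6, 253, 31.0 and 27.3 TPM. C1qa and C1qb, for chains of the first complement component, had 189.5, 70.3, 3.30 and 2.96 TPM and 163, 55.3, 4.25 and 3.78 TPM. For each of the 3, replicate 1 lay above replicate 2, and both lay above replicates 3 and 4, which were close to each other.

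Replicate 1 was the highest library for 19 of the 21 members, compared with 19.7% of all protein-coding genes detected. Ctss, for a lysosomal protease, had 73.5, 26.8, 1.32 and 1.21 TPM (adjusted p = 2.41e-06), Tyrobp, for the adaptor of the receptor Trem2, 61.5, 20.6, 2.24 and 1.54 TPM (adjusted p = 2.34e-06), and Cx3cr1, for the fractalkine receptor, 27.0, 6.04, 0.597 and 0.365 TPM (adjusted p = 1.10e-05). Mrc1, for the mannose receptor of macrophages, was high in replicate 1 alone, with 24.1, 0.463, 0.141 and 0.403 TPM. Siglech had 1 count at most in any library. By contrast, Tmem119, which marks microglia but is also made by other cells, and Sall1, a factor of microglia and of neural cells, did not pass the test, although Sall1 did without replicate 2. They had 24.0, 19.7, 16.9 and 17.2 TPM and 17.2, 14.2, 13.3 and 18.2 TPM. Cd68, for a lysosomal membrane protein of macrophages that other cells also make, averaged 36.3 ± 25.3 TPM.

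The microglia sum of the libraries labelled KO showed other orders. It was 181, 1032, 133 and 76.7 TPM in KOLi and 365, 1084, 113 and 73.6 TPM in KOVeh, so that there the high libraries were those of replicate 2, whose label is in doubt. Without them no library labelled KO exceeded 365 TPM. The difference between genotypes was not tested here.

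Since most microglia genes moved together, the promoters of the list were searched for GGAAGT, a core recognised by transcription factors of the ETS family, to which the myeloid factor Spi1 belongs. The search covered both strands of the 250 bases before the RefSeq start of each gene (GRCm38.p6). GGAAGT was found in 9 of 15 members with a promoter in the table (60.0%), while 22.2% of all 27025 genes held it. The 9 were C1qb, C1qc, Fcrls, Lyz2, Mrc1, P2ry12, Ptprc, Sall1 and Siglech. Of these, Sall1 did not pass the replicate term and Siglech had 1 count at most. The share thus describes the list and not the genes that moved together. The longer form GAGGAAGT, which contains it, was found in 1 of 15 (6.67%), compared with 2.79% of all genes. A match describes the letters and is not a measured binding site. The promoters of 2 members that were high in replicate 1 are shown 5′ to 3′ on the strand of the gene, with GGAAGT or its reverse complement ACTTCC in capitals, for C1qb (chr4:136886201-136886450, minus strand) and Lyz2 (chr10:117282273-117282522, minus strand).
C1qb: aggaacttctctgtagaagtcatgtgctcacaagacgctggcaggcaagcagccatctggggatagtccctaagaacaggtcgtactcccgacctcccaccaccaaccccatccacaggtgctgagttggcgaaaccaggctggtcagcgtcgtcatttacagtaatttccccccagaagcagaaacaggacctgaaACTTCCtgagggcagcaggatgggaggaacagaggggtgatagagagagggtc
Lyz2: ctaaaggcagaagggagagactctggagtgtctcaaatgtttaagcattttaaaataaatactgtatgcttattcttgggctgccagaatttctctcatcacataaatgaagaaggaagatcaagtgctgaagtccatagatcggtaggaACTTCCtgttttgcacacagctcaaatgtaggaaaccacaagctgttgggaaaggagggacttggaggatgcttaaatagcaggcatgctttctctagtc

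Genes of endothelial cells were absent in part. Of 18 genes, 10 were below 1 TPM in all 4 libraries and 7 were at 1 TPM or more in all 4. Among those below were Pecam1, for the junction protein CD31, with 0.402, 0.4998, 0.264 and 0.148 TPM in replicates 1, 2, 3 and 4, Cldn5, for the tight-junction protein of brain vessels, with 0.196, 0.116, 0 and 0 TPM, and Tie1 with 0.170, 0.133, 0.0607 and 0.0418 TPM. Most members that were present are also made by other cells. Slc2a1, for a glucose transporter, had 90.4, 80.3, 43.2 and 98.8 TPM, Mfsd2a, for a lipid transporter, 36.6, 43.6, 23.9 and 89.0 TPM, and Slco1a4, for an organic anion transporter, 13.9, 18.4, 6.08 and 27.4 TPM. These 3 rose in replicate 4 (adjusted p = 2.26e-05 for Slc2a1, 5.68e-08 for Mfsd2a and 1.23e-07 for Slco1a4), where each was highest, although Slc2a1 did not pass without replicate 3 (log2 fold change 0.29, adjusted p = 0.0123), and in a fit on all 16 libraries neither Slc2a1 (log2 fold change 0.11, adjusted p = 0.742) nor Slco1a4 (log2 fold change 0.61, adjusted p = 0.129) passed. Cdh5, for vascular cadherin and likewise a marker of endothelial cells, was present and steady at 33.6, 25.9, 34.4 and 33.1 TPM, and Ocln, for occludin of epithelial junctions, averaged 11.4 ± 2.26 TPM. Of the 13 genes that were tested, 6 rose and 0 fell in replicate 4, where the background is 12.9% higher and 8.85% lower.

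Genes of mural cells were present in part. Acta2, for smooth muscle actin, had 301 TPM in replicate 4, against 108, 101 and 85.5 TPM in replicates 1, 2 and 3 (log2 fold change 1.75, SE 0.16, adjusted p = 7.28e-06). Pdgfrb, for the receptor of pericytes and fibroblasts, had 27.1 TPM in replicate 4, against 15.5, 18.8 and 15.4 TPM in replicates 1, 2 and 3 (log2 fold change 0.69, SE 0.08, adjusted p = 3.96e-05). Vtn, for vitronectin, Anpep, for an aminopeptidase, and Tpm2, for a tropomyosin, averaged 80.3 ± 19.9 TPM, 16.7 ± 3.86 TPM and 14.9 ± 1.43 TPM. The pericyte channel gene Kcnj8 and Des, for desmin, were the lowest of the 16, with 0.0546, 0, 0.117 and 0.0403 TPM and 0.0370, 0.0436, 0 and 0.0274 TPM in replicates 1, 2, 3 and 4, and 5 genes were below 1 TPM in all 4. Both Acta2 and Pdgfrb were highest in replicate 4, without overlap with the other WTVeh libraries, and in a fit on all 16 libraries neither passed (log2 fold change 1.07, adjusted p = 0.0910 for Acta2 and log2 fold change 0.40, adjusted p = 0.0230 for Pdgfrb).

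Genes of meningeal fibroblasts were all detected, 20 of 20 at 1 TPM or more in every library, although the meninges had been removed before dissociation. Their sum was 1938, 1727, 1749.8 and 2034 TPM in replicates 1, 2, 3 and 4. Fmod, for the collagen-binding proteoglycan fibromodulin, led with 181, 193, 134 and 372 TPM, followed by Ogn, for osteoglycin, with 226, 180.2, 201 and 197 TPM, Islr, a surface protein of mesenchymal cells, with 219.5, 189, 152 and 147 TPM, and Fn1, for fibronectin, with 92.3, 94.9, 153 and 279.5 TPM. The list was split in replicate 4, where 5 of 20 genes rose and 7 fell (background 12.9% and 8.85%). The replicate term called 18 (background 27.7%), and 5 without replicate 4. Those that rose encode matrix, with Fn1 (log2 fold change 1.43, SE 0.12, adjusted p = 4.12e-06), Fmod (log2 fold change 1.26, SE 0.08, adjusted p = 4.06e-07) and Col1a1 (log2 fold change 0.82, SE 0.07, adjusted p = 7.64e-06), of which Fmod did not pass in a fit on all 16 libraries (log2 fold change 0.67, adjusted p = 0.110). Those that fell include the GABA transporter gene Slc6a13, with 70.5 TPM in replicate 4, against 189, 123 and 121 TPM in replicates 1, 2 and 3, and Dcn, for decorin, with 61.1 TPM in replicate 4, against 126, 109.7 and 101 TPM in replicates 1, 2 and 3.

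Crabp2, a retinoic acid carrier of the arachnoid, had 11.4, 14.5, 3.95 and 2.41 TPM in replicates 1, 2, 3 and 4, and the factor Foxc2, at the lower end of the list, averaged 6.999 ± 0.788 TPM. Col3a1, for the collagen of soft tissue, did not follow Col1a1 and had 118, 139, 145 and 137 TPM. Wisp2 (Ccn5), for a secreted matricellular protein, stood outside the lists, among the strongest calls of the contrast, with 448 TPM in replicate 4, against 76.5, 109 and 40.4 TPM in replicates 1, 2 and 3 (log2 fold change 2.58, SE 0.08, adjusted p = 2.69e-09).

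Wisp2 was at 3.98, 138, 5.23 and 23.0 TPM in KOLi and 4.26, 89.3, 0.551 and 19.8 TPM in KOVeh, against 102, 181, 70.0 and 563 TPM in WTLi, in replicates 1, 2, 3 and 4. In both WT groups replicate 4 was the highest library, and in both groups labelled KO replicate 2 was, whose label is in doubt. In a fit on all 16 libraries Wisp2 did not pass the contrast (log2 fold change 1.62, adjusted p = 0.0345).

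Motile cilia genes of ependymal cells were present at moderate levels and were lowest in replicate 3. Of 23 genes, 21 were at 1 TPM or more in all 4 libraries, and the sum was 720.1, 661, 342 and 638 TPM in replicates 1, 2, 3 and 4. Foxj1, the master regulator of motile cilia, had 224, 218, 103 and 295 TPM (adjusted p = 8.97e-07), Rsph1, for a protein of the radial spokes, 105, 89.8, 51.3 and 72.0 TPM (adjusted p = 6.93e-05), and Enkur, for an axonemal adaptor, 69.7, 70.4, 33.7 and 61.2 TPM (adjusted p = 4.04e-05). Replicate 3 was lowest for these 3 and for 16 of the 23 genes, compared with 25.6% of all protein-coding genes detected.

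In the replicate term 17 of 22 cilia genes were called (background 27.7%), and 7 without replicate 3, when neither Rsph1 nor Enkur passed (adjusted p = 0.0352 and 0.140). Replicate 4 did not move the list as a whole, with 3 genes that rose and 3 that fell (background 12.9% and 8.85%). Without replicate 1 and without replicate 2, 6 and 7 rose. Foxj1 rose to 295 TPM in replicate 4, against 224, 218 and 103 TPM in replicates 1, 2 and 3 (log2 fold change 0.78, SE 0.06, adjusted p = 2.50e-06), while Tmem212, a membrane protein of ciliated cells, fell to 21.8 TPM in replicate 4, against 54.2, 48.1 and 33.2 TPM in replicates 1, 2 and 3 (log2 fold change -1.05, SE 0.14, adjusted p = 1.72e-04). Ccdc153, of the axoneme, had 25.9 TPM in replicate 4, against 52.3, 45.0 and 20.5 TPM in replicates 1, 2 and 3. In a fit on all 16 libraries none of the 3 passed (log2 fold change 0.15, adjusted p = 0.760 for Foxj1, log2 fold change -1.86, adjusted p = 0.0104 for Tmem212 and log2 fold change -1.18, adjusted p = 0.0388 for Ccdc153). Spag6, for a protein of the central apparatus, and Mia averaged 1.41 ± 0.111 TPM and 0.406 ± 0.240 TPM. The sum of the same genes was 158, 731, 221 and 144 TPM in KOLi and 187, 732, 167 and 132 TPM in KOVeh, against 813, 759.9, 403 and 714 TPM in WTLi, and of the libraries labelled KO the pair of replicate 2, whose label is in doubt, lay with the WT libraries.

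Of the 12 choroid plexus genes, 6 were at 1 TPM or more in all 4 libraries. Ttr, for transthyretin, the main product of this epithelium, had 89.0, 39.6, 53.5 and 76.9 TPM in replicates 1, 2, 3 and 4 and did not pass the test. Folr1, for the folate receptor, had 34.2 TPM in replicate 4, against 19.2, 14.5 and 6.18 TPM in replicates 1, 2 and 3 (log2 fold change 1.53, SE 0.10, adjusted p = 7.21e-07), and replicate 4 was its highest library, although it did not pass in a fit on all 16 libraries (log2 fold change 1.15, adjusted p = 0.0172). Calml4, Sostdc1 and Aqp1 averaged 7.32 ± 2.34 TPM, 4.67 ± 1.81 TPM and 2.96 ± 1.37 TPM. Kl, for klotho, and Slc4a5, for a bicarbonate carrier, were below 1 TPM in every library, at 0.296 ± 0.117 TPM and 0.122 ± 0.0529 TPM.

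Genes of dividing cells were all present at low levels, with a median of 12.4 TPM over the 30 genes. Their sum was 488, 567, 419 and 604 TPM in replicates 1, 2, 3 and 4, and it was lowest in replicate 3 and highest in replicate 4. Replicate 4 was the highest library for 24 of the 30 genes and replicate 3 the lowest for 25, whereas 26.3% of all protein-coding genes detected were highest in replicate 4 and 25.6% lowest in replicate 3. In the replicate term 24 of 30 were called (background 27.7%), and 16 rose and 0 fell in replicate 4 (background 12.9% and 8.85%). Without replicate 3 the term called 14 and 8 rose, without replicate 2 27 rose, and without replicate 4 the term called 4. Top2a rose to 24.5 TPM in replicate 4, against 15.8, 20.4 and 14.1 TPM in replicates 1, 2 and 3 (log2 fold change 0.64, SE 0.10, adjusted p = 3.90e-04). Mki67, for a coat protein of mitotic chromosomes, rose to 14.7 TPM in replicate 4, against 8.92, 8.50 and 7.57 TPM in replicates 1, 2 and 3 (log2 fold change 0.88, SE 0.14, adjusted p = 4.76e-04). For both genes replicate 4 was above every other WTVeh library.

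The highest members included genes of DNA replication. Pcna, for the sliding clamp of DNA polymerase, had 86.4, 106, 72.8 and 89.9 TPM in replicates 1, 2, 3 and 4, Hmgb2, for a chromatin protein, 53.0, 66.3, 43.5 and 56.2 TPM, and Rrm2, for a subunit of ribonucleotide reductase, 24.7, 30.3, 27.7 and 35.5 TPM. Pcna and Hmgb2 were highest in replicate 2 and did not pass the contrast of replicate 4, which Rrm2 did (log2 fold change 0.54, SE 0.11, adjusted p = 0.00352). Without replicate 2 both Pcna and Hmgb2 passed, and without replicate 1 Rrm2 did not (log2 fold change 0.37, adjusted p = 0.0201). Cdc20, an activator of the ligase that ends metaphase, rose to 37.5 TPM in replicate 4, against 27.5, 35.5 and 26.0 TPM in replicates 1, 2 and 3, and Mcm4, of the replicative helicase, averaged 24.9 ± 3.0002 TPM. Cenpe and Cenpf, for kinetochore proteins, were at the bottom with 4.30 ± 0.501 TPM and 3.68 ± 1.28 TPM. Microglia genes, which were highest in replicate 1, and neuronal genes, which were highest in replicate 3, did not share this order.

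The genes of dividing cells moved together, and their promoters were searched for CCAAT, the box bound by NF-Y in many mitotic genes, on both strands. It was found in 22 of 25 members with a promoter in the table (88.0%), and in 37.5% of all genes. TTTGAA, a core of the cell cycle homology region, which neither contains nor lies within CCAAT, was found in 9 of 25 (36.0%), and in 18.3% of all genes. Top2a (chr11:99024190-99024439, minus strand, GRCm38.p6) held 6 copies of the box and Ccnb1, for cyclin B1 (chr13:100786487-100786736, minus strand), 2. Both promoters are shown 5′ to 3′ on the strand of the gene, with CCAAT or its reverse complement ATTGG in capitals.
Top2a: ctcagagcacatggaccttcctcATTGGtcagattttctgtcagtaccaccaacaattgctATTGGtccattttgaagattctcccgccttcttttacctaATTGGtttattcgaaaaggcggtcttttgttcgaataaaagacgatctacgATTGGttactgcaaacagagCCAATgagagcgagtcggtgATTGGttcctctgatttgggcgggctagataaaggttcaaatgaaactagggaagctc
Ccnb1: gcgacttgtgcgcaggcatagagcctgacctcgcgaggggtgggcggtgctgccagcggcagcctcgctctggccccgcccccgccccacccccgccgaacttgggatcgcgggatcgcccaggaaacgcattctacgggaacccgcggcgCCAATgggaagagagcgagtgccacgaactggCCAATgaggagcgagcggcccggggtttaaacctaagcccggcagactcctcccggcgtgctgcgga

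Of 18 genes of neural progenitors, 15 were at 1 TPM or more in all 4 libraries. Hopx, a homeodomain protein of radial glia and astrocytes, had 276, 280.2, 200.2 and 113 TPM in replicates 1, 2, 3 and 4 and Sox2, of stem cells and astrocytes, 205, 217, 117 and 252 TPM. Sox4, of immature neurons and progenitors, averaged 37.1 ± 10.2 TPM. In contrast, Eomes, which marks intermediate progenitors of pyramidal neurons, had 0.201, 0.158, 0.323 and 0.198 TPM, and Neurog1 had no count in any library, within the same limit of 3 counts. Of 16 genes tested, 7 rose and 2 fell in replicate 4, where the background is 12.9% higher and 8.85% lower. Sox2 (log2 fold change 0.60, SE 0.06, adjusted p = 2.21e-05) was among the 7 and Hopx (log2 fold change -1.07, SE 0.09, adjusted p = 6.53e-06) among the 2. Neither passed in a fit on all 16 libraries (log2 fold change 0.37, adjusted p = 0.0503 for Sox2 and log2 fold change -0.48, adjusted p = 0.0554 for Hopx).

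Immediate-early genes, which neurons switch on within minutes of activity, were higher in replicate 4 than in any other WTVeh library for 19 of 20 genes. Their sum was 1794 TPM in replicate 4, against 889, 726 and 1095 TPM in replicates 1, 2 and 3. In the contrast 19 of 20 rose and 1 fell, where the background is 12.9% higher and 8.85% lower. The gene that fell was Jun, with 132 TPM in replicate 4, against 171, 165 and 175 TPM in replicates 1, 2 and 3 (log2 fold change -0.29, SE 0.06, adjusted p = 0.00384). Jun did not pass without replicate 3 (log2 fold change -0.27, adjusted p = 0.0161) and stayed under the fold of 1.2 on all 16 libraries (log2 fold change -0.23, adjusted p = 0.00239). Npas4, for a factor specific to neuronal activity, had 126 TPM in replicate 4, against 17.4, 9.90 and 26.7 TPM in replicates 1, 2 and 3 (log2 fold change 2.71, SE 0.15, adjusted p = 2.37e-07). Fosb had 12.1 TPM in replicate 4, against 2.76, 1.496 and 3.37 TPM in replicates 1, 2 and 3 (log2 fold change 2.32, SE 0.17, adjusted p = 1.38e-06). Replicate 2 was lowest for both genes, and replicate 4 was more than 3 times above the next library.

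Other members had smaller differences of the same sign. Nr4a3, for an orphan nuclear receptor, rose to 217 TPM in replicate 4, against 120.3, 98.7 and 173 TPM in replicates 1, 2 and 3, Bdnf, for the neurotrophin, to 129.5 TPM in replicate 4, against 75.5, 52.8 and 93.4 TPM in replicates 1, 2 and 3, and Egr1, for a zinc-finger factor, to 141 TPM in replicate 4, against 65.8, 46.6 and 92.4 TPM in replicates 1, 2 and 3. Of these, Bdnf did not pass on all 16 libraries (log2 fold change 0.24, adjusted p = 0.409). Junb and Egr2 averaged 76.1 ± 28.9 TPM and 3.46 ± 2.33 TPM over the 4 libraries. The list sum of the KO libraries was 1072, 765, 828 and 1095 TPM in KOLi and 1459, 770.3, 1030.1 and 1127 TPM in KOVeh, against 1044, 702, 1057 and 1553 TPM in WTLi in replicates 1, 2, 3 and 4. The KO libraries of replicate 4 thus did not reach the level of the WT libraries of replicate 4. Npas4 was at 27.5, 8.17, 9.45 and 32.2 TPM in KOLi and 88.0, 7.41, 24.6 and 37.3 TPM in KOVeh, against 31.1, 8.19, 25.3 and 98.3 TPM in WTLi.

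TGACGTCA, the full cAMP response element bound by CREB, was found in 2 of 15 members with a promoter in the table (13.3%), Btg2 and Dusp1, and in 1.77% of all genes. Its variant TGACGCAA, which neither contains nor lies within it, was found in 1 of 15, and in 0.507% of all genes, and the CArG box of serum response factor in 1, and in 1.62% of all genes. Dusp1, for a phosphatase that switches off MAP kinases, had 61.3 TPM in replicate 4, against 19.7, 23.1 and 21.8 TPM in replicates 1, 2 and 3 (log2 fold change 1.41, SE 0.08, adjusted p = 2.37e-07), above every other WTVeh library. Its promoter (chr17:26508473-26508722, minus strand, GRCm38.p6) is shown 5′ to 3′ on the strand of the gene with the element, which is its own reverse complement, in capitals.
Dusp1: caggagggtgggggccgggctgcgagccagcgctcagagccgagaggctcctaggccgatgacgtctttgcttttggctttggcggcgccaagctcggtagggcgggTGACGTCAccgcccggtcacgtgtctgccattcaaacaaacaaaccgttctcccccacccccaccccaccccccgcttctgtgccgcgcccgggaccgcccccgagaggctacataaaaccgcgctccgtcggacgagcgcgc

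Genes of cells that a hippocampal culture should lack were near the floor. None of the 6 genes of red blood cells was at 1 TPM in all 4 libraries, and their sum was 1.15, 1.89, 1.80 and 0.699 TPM in replicates 1, 2, 3 and 4. Hbb-bs, for adult β-globin, reached 1.28 TPM in replicate 2. Of 20 genes of other brain regions, 5 were at 1 TPM or more in all 4. Lmx1a, of the midbrain floor and the cortical hem, had 9.41 TPM in replicate 4, against 4.01, 4.39 and 2.46 TPM in replicates 1, 2 and 3 (log2 fold change 1.33, SE 0.14, adjusted p = 2.45e-05), and En2, of the midbrain and hindbrain, 6.68 TPM in replicate 4, against 2.71, 3.43 and 2.95 TPM in replicates 1, 2 and 3 (log2 fold change 1.14, SE 0.19, adjusted p = 6.52e-04). Lhx9, En1 and Slc6a3 averaged 3.48 ± 0.744 TPM, 2.54 ± 0.514 TPM and 1.46 ± 0.428 TPM. The list gave 29.98 TPM in replicate 4, against 18.8, 18.1 and 17.1 TPM in replicates 1, 2 and 3. Gabra6, of cerebellar granule cells, and the Hox genes Hoxb5 and Hoxc8 of the hindbrain and spinal cord had no count in any of the 4.

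Gene families of which 1 member or a few carry the function in a given cell were compared by the share that each paralogue took of the summed TPM of its family. In 44 of 53 families the same member led in all 4 WTVeh libraries, in 33 the leader held more than 50% in every library, and in 4 it held more than 90% on average. TPM divide by the deposited gene length, which is the union of the exons and grows with long ends. By CPM, which use no length, 12 families had another leader, and by the longest annotated transcript as length 5 had, while 41 kept theirs under both. A difference between paralogues in the families that did not is given with that limit.

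In the presynapse, Slc17a7 took 97.1% ± 0.459 (SD, n = 4) of the vesicular glutamate transporters, against 1.99% ± 0.412 for Slc17a6 and 0.935% ± 0.146 for Slc17a8. Vamp2, for the vesicle protein synaptobrevin, took 77.6% ± 2.27 of its family. Snap25 and Snap47, which form fusion complexes, could not be ranked by TPM, with 48.9, 44.9, 50.6 and 41.3% for Snap25 and 42.9, 47.5, 42.0 and 49.2% for Snap47 in replicates 1, 2, 3 and 4, whereas Snap25 led with 67.7% by CPM and 67.1% by the longest transcript. Of the synaptotagmins, Syt11, which does not sense calcium, took 47.0% ± 2.40, Syt1, the sensor of fast release, 21.8% ± 2.84 and Syt5 12.5% ± 3.03. Syn1 took 58.9% ± 4.53, against 41.1% ± 4.54 for Syn2, but by CPM Syn2 led with 59.6%. Among the enzymes of GABA synthesis, Gad1 took 56.2% ± 1.28 and Gad2 43.8% ± 1.28.

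Among glutamate receptors, Gria1 led the AMPA family with 60.6% ± 2.00, followed by Gria2 with 28.2% ± 2.79, an order that CPM turned, with 48.7% for Gria2. Of the regulatory NMDA subunits, Grin2b, which dominates in young neurons, held 58.9, 50.7, 64.0 and 65.2% in replicates 1, 2, 3 and 4, above Grin2a (18.4% ± 1.81) and Grin3a (12.1% ± 3.81) in each. Grik5, a high-affinity kainate subunit, took 70.6% ± 2.71 and Grm5, a postsynaptic metabotropic receptor, 52.9% ± 2.43 of their families. The alpha subunits of GABA-A receptors were led by Gabra5, a subunit that is rich in the hippocampus, with 63.6% ± 0.686, the smallest SD of any leader below 90%. Gabra4 took 13.6% ± 1.68 and Gabra2 11.9% ± 0.768 of the alpha subunits.

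The postsynaptic scaffolds were mixed. Shank3, the gene of the study, took 40.9, 43.0, 38.6 and 38.8% in replicates 1, 2, 3 and 4, Shank1 35.0, 34.2, 39.1 and 39.1% and Shank2 24.1, 22.8, 22.3 and 22.1%. Shank3 and Shank1 each led in 2 libraries, and by CPM Shank1 led with 38.6%. Dlg4, for PSD-95, took 45.7% ± 2.34, ahead of Dlg3 with 27.2% ± 2.61, Dlg2 with 19.6% ± 3.22 and Dlg1 with 7.54% ± 1.32. Dlgap3 took 49.7% ± 4.40 of the SAPAP proteins that bind SHANK, although by CPM Dlgap1 led with 38.9%. The HOMER family, which links SHANK to metabotropic receptors, changed between libraries. Homer1, which is also an immediate-early gene, took 36.8, 31.8, 36.6 and 51.6%, and Homer3 38.4, 46.2, 34.0 and 29.9%. Nlgn2, of inhibitory synapses, took 81.0% ± 2.72 of the neuroligins and Nrxn2 61.9% ± 4.41 of the neurexins.

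Of the channels that set excitability, Scn2a took 59.3% ± 1.70 and Scn8a 22.5% ± 0.884 of the sodium channels. Cacna1a (33.5% ± 2.15) and Cacna1b (32.1% ± 3.95), of transmitter release, differed by less than their SD. Slc12a5, for the chloride exporter KCC2 of mature neurons, took 84.0% ± 0.998, against 15.97% ± 0.998 for the importer Slc12a2. Camk2a took 62.0% ± 4.26 and Camk2b 29.2% ± 3.60 of the CaM kinases. Calm3 and Calm2, which encode the same protein, took 40.1% ± 3.31 and 37.2% ± 3.55 of calmodulin by TPM, a difference below their SD.

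**Figure D3:**
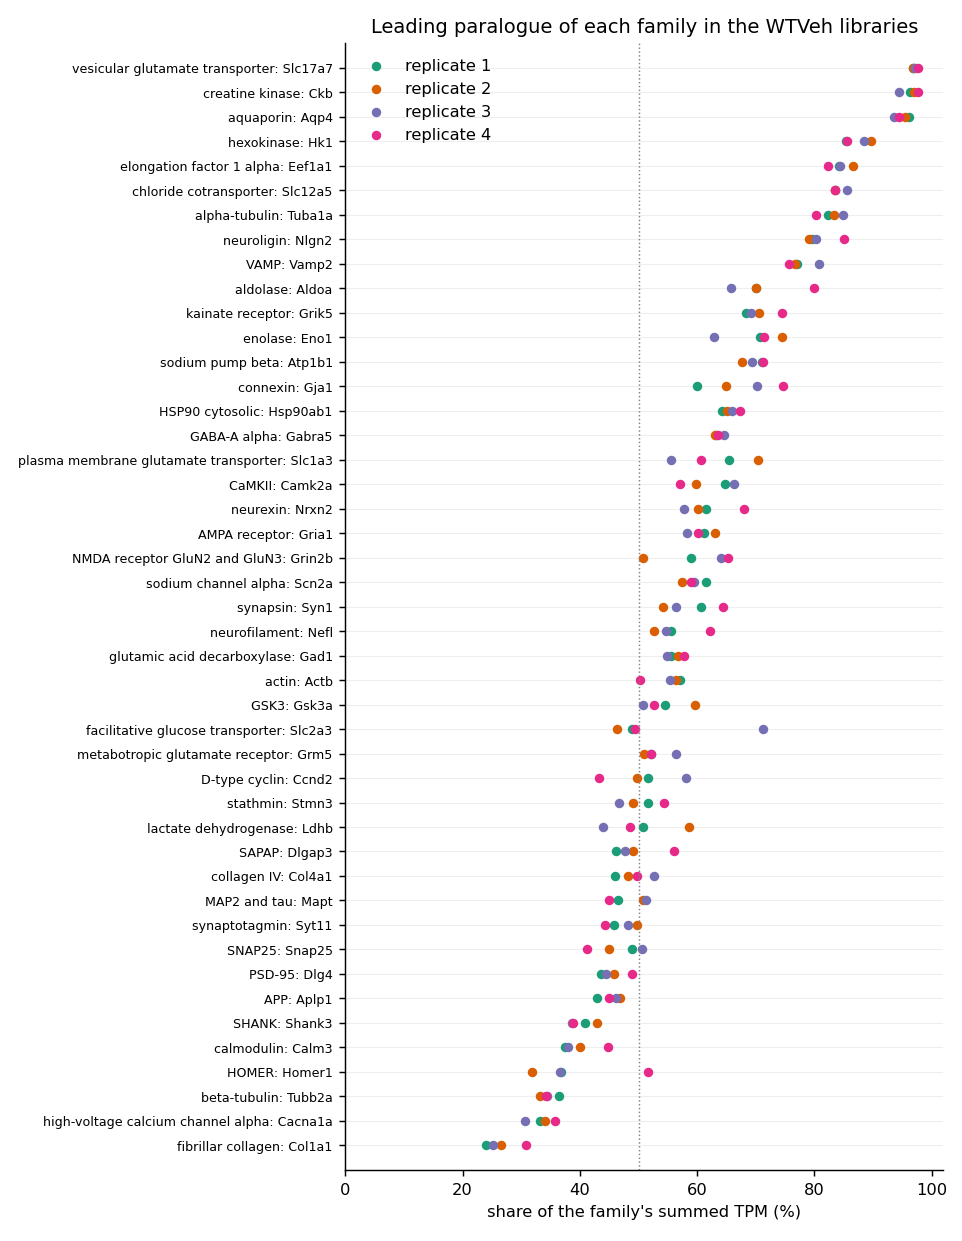
Share of each family's summed TPM (x axis, percent) held by its leading member in the 4 WTVeh libraries, for most of the families described, with points coloured by replicate number. Most leaders hold nearly the same share in every library, while the points of Homer1 and Slc2a3 spread, with Slc2a3 at 71.2% in replicate 3.

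Families of uptake and energy supply held neuronal and glial members. Slc1a3, for the astrocyte transporter GLAST, took 63.0% ± 6.33 of the glutamate transporters and Slc1a2 28.2% ± 5.95. Slc2a3, the glucose transporter of neurons, took 48.8, 46.3, 71.2 and 49.4% in replicates 1, 2, 3 and 4, and Slc2a1, of astrocytes and vessels, 49.0, 50.7, 25.6 and 47.4%. Replicate 3 stood apart from the other libraries in both. Atp1b1, for a beta subunit of the sodium pump, took 69.8% ± 1.74 of its family. In glycolysis, Pkm took 99.98% of pyruvate kinase, Hk1 87.3% ± 2.13 of hexokinase, Aldoa 71.4% ± 5.99 of aldolase, Eno1 69.9% ± 4.96 of enolase and Ckb 96.3% ± 1.40 of creatine kinase. Ldhb and Ldha each led in 2 libraries, with 50.5% ± 6.18 and 49.5% ± 6.18, whereas Ldha led with 67.2% by CPM and 59.7% by the longest transcript.

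In the cytoskeleton, Tuba1a took 82.7% ± 1.92 of α-tubulin, and β-tubulin was divided among Tubb2a (34.6% ± 1.31), Tubb2b (22.1% ± 1.56) and Tubb3 (11.6% ± 0.761). Actb and Actg1, whose proteins differ in a few residues, took 54.8% ± 3.09 and 41.8% ± 1.38. Nefl took 56.3% ± 4.10 of the neurofilaments and Ina 24.5% ± 3.72. Stmn3 took 50.5% ± 3.32 of the stathmins, with Stmn2 first by CPM (44.7%). Mapt, for tau, took 48.4% ± 3.12 and Map2 28.5% ± 2.01, an order that turned by CPM, with 39.6% for Map2, and by the longest transcript, with 37.1% for Map2. Eef1a1 took 84.4% ± 1.69 over the neuronal and muscle form Eef1a2 (15.6% ± 1.69), and Hsp90ab1 65.6% ± 1.33 over Hsp90aa1.

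In glia and matrix, Aqp4, the water channel of astrocyte end-feet, took 94.9% ± 1.13 of the aquaporins and Gja1, for connexin 43, 67.4% ± 6.36 of the connexins, with Gjb2, which meningeal cells make, at 16.6% ± 6.30. Col4a1 and Col4a2, whose chains form basement membrane together, took 49.2% ± 2.79 and 31.4% ± 0.843. The fibrillar collagens had no fixed leader, with Col1a1 at 24.1, 26.6, 25.1 and 30.7% in replicates 1, 2, 3 and 4 and Col3a1 at 26.4, 27.0, 27.3 and 19.2%. Col3a1 was above Col1a1 in replicates 1, 2 and 3, whereas Col1a2 led with 27.6% by CPM and 30.5% by the longest transcript. Of the D-type cyclins, Ccnd2 took 50.6% ± 6.11 and Ccnd1 40.6% ± 5.12. Gsk3a and Gsk3b, kinases that Li inhibits, took 54.4% ± 3.85 and 45.6% ± 3.85, an order that CPM turned (73.8% for Gsk3b), and Aplp1 45.2% ± 1.76 of the APP family, where CPM put App first (51.1%).

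The 4 libraries were close for most genes. Among the protein-coding genes that spread most at a mean of 10 TPM or more, many were from microglia. Over 17107 genes with a mean of 1 TPM or more, the median SD of log2(TPM + 0.5) was 0.23, and the median CV was 16.4%, while counting error alone gives a median of 4.35%. In 4170 genes (24.4%) the highest library had 2 times the TPM of the lowest or more, and 1100 had an SD above 1, which 618 had without replicate 4. Among 9908 protein-coding genes with a mean of 10 TPM or more, the median SD was 0.17, and 68 had an SD above 1.

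Among the 15 such genes with the largest SD were C1qa, C1qb, C1qc, Ctss, Fcrls, Lyz2 and Tyrobp of the microglia list, together with Stab1, for a scavenger receptor of macrophages, with 33.7, 5.67, 0.435 and 0.979 TPM in replicates 1, 2, 3 and 4, Cd52, for a surface peptide of leukocytes, with 19.7, 18.4, 2.14 and 0.346 TPM, and Fcer1g, for the signalling chain of Fc receptors, with 75.1, 33.9, 3.42 and 2.12 TPM. All of these were highest in replicate 1. Gpnmb, of macrophages, was among the strongest calls of the replicate term, with 40.6, 12.6, 1.83 and 3.36 TPM (adjusted p = 4.40e-08). Among the steadiest genes, March5, for a ubiquitin ligase of mitochondria, averaged 123 ± 0.408 TPM, Usp30, for a deubiquitinase of mitochondria, 26.0 ± 0.128 TPM, Mcoln1, for a lysosomal cation channel, 27.5 ± 0.136 TPM, and Eef2, for the translocase of the ribosome, 1310.4 ± 10.4 TPM (SD, n = 4). Their CVs, the smallest of many and given as a description, were 0.331%, 0.493%, 0.495% and 0.790%.

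**Figure D4:**
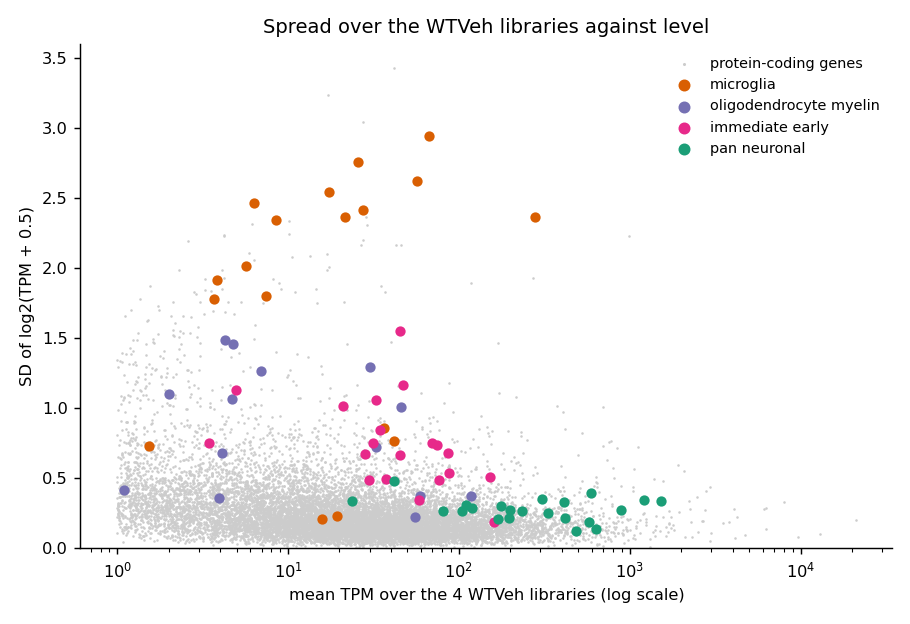
SD of log2(TPM + 0.5) over the 4 WTVeh libraries (y axis) against the mean TPM (x axis, log scale) of each protein-coding gene with a mean of 1 TPM or more (grey), with the microglia, myelin, immediate-early and pan-neuronal lists in colour. Most microglia genes lie far above the grey cloud, with C1qa at 2.94, myelin and immediate-early genes reach above it in part, and no pan-neuronal gene exceeds 0.48.

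The remaining genes of the largest SD were not cell markers. Gapdh, a glycolytic enzyme that is widely used as a reference, had 58.6 TPM in replicate 4, against 1314, 1403 and 1188 TPM in replicates 1, 2 and 3 (log2 fold change -5.36, SE 0.49, adjusted p = 8.35e-06), and copies of ribosomal protein genes were high in the same library. Rps12-ps3, which is named as a pseudogene but annotated as protein-coding in the deposited tables, had 163 TPM in replicate 4, against 0.563, 2.98 and 0.605 TPM in replicates 1, 2 and 3 (log2 fold change 7.59, SE 0.20, adjusted p = 9.09e-10), and the predicted gene Gm6793 107 TPM in replicate 4, against 1.30, 1.02 and 0.931 TPM in replicates 1, 2 and 3 (log2 fold change 6.29, SE 0.14, adjusted p = 2.42e-10). Rpl9-ps6 and the predicted genes Gm11808 and Gm21887 were likewise highest there, with log2 fold changes of 4.98, 4.45 and 7.18, and the long non-coding gene Gm10076 fell to 76.8 TPM in replicate 4, against 763, 828 and 710.1 TPM in replicates 1, 2 and 3. Genes annotated as processed pseudogenes, which are copies of messenger RNA in the genome, took 0.303% of the counts in replicate 4, against 0.0525% to 0.0570% in replicates 1 to 3. Of 796 with a mean of 1 TPM or more, 552 (69.3%) were highest there, compared with 26.4% of protein-coding genes at the same mean. The mean includes replicate 4, so a pseudogene could pass through its level in replicate 4 alone, which can raise this share. In 89 pairs of a pseudogene and the parent gene in its name, the pseudogene was highest in replicate 4 in 77 pairs. The parent was lowest there in 55 pairs, and 50 pairs showed both. Parents such as Rps12 and Rpl17 stand in several pairs, so these are not counts of parent genes. Of all protein-coding genes detected, 32.6% were lowest in replicate 4. Reads of near-identical copies can be split between them by the counting, so that levels of such genes are uncertain.

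The other groups had the same order. Processed pseudogenes took 0.310% and 0.325% of the counts in the KO libraries of replicate 4, 0.0616% to 0.0697% in those of replicates 1 to 3, and 0.308% in the WTLi library of replicate 4. Gapdh was at 57.7 and 10.7 TPM in the KOLi and KOVeh libraries of replicate 4, against 9.32 and 58.6 TPM in the WTLi and WTVeh ones, while the 12 libraries of replicates 1 to 3 had 1160.0 to 1403 TPM. Rps12-ps3 was at 226 and 196 TPM in the same KO libraries and 196 and 163 TPM in the same WT libraries. Replicate 4 thus stood apart for these genes in all 4 groups, whereas in the groups labelled KO replicate 2 was the highest library for Wisp2, and replicate 1 the highest in KOVeh for Npas4.

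Among the strongest calls of the contrast, Hnrnpa3 and Hmgb1, for an RNA-binding and a chromatin protein with many pseudogenes, fell to 45.3 TPM in replicate 4, against 218, 197 and 222 TPM in replicates 1, 2 and 3 (log2 fold change -2.22, SE 0.08, adjusted p = 5.54e-09) and to 53.0 TPM in replicate 4, against 177, 179 and 173 TPM in replicates 1, 2 and 3 (log2 fold change -1.66, SE 0.07, adjusted p = 2.72e-08). Rpl7a and Sumo2 fell by 1.86 and 1.95 on the log2 scale. For all of these calls, the sequencing batch and the culture of replicate 4 cannot be told apart. Read against the background of 12.9% higher and 8.85% lower, the lists with the largest share of tested members that rose were the immediate-early genes, dividing cells, reactive glia and mural cells, with 19 of 20, 16 of 30, 8 of 16 and 6 of 12 genes. Those with the largest share that fell were microglia, myelin, interneurons and astrocytes, with 14 of 20, 11 of 18, 13 of 22 and 14 of 25. With 15 counts required in every library, 6 of 9, 10 of 15, 13 of 21 and 13 of 24 of these fell. Under that filter 19 of 20, 14 of 30, 8 of 16 and 6 of 11 of the first 4 lists rose, and 6 of 8 endothelial genes did. In a fit on all 16 libraries the counts of the first 4 lists were 11, 13, 1 and 2 and those of the last 4 were 12, 2, 4 and 5, and without replicate 3 3 genes of reactive glia rose.

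**Figure D5:**
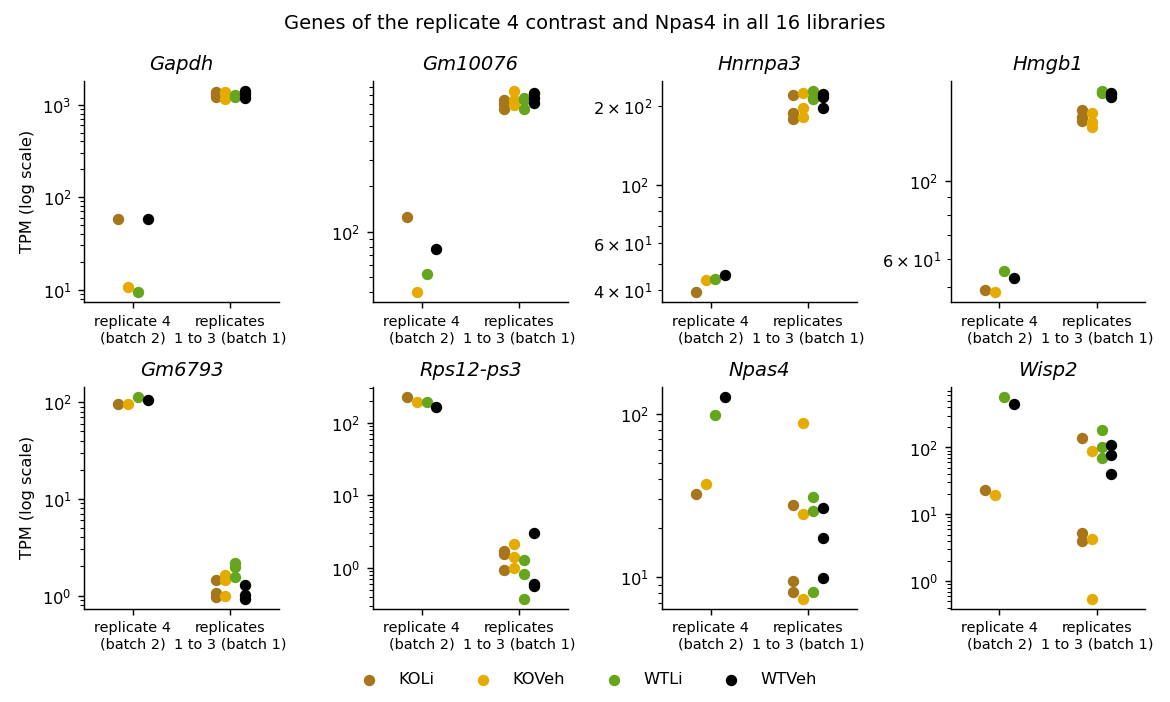
TPM (y axes, log scale) of 8 genes in all 16 libraries, with the library of replicate 4 on the left and those of replicates 1 to 3 on the right of each panel, coloured by group. Gapdh, Gm10076, Hnrnpa3 and Hmgb1 are lower and Gm6793 and Rps12-ps3 higher in replicate 4 of every group, while Npas4 and Wisp2 stand well above the other libraries of their group in replicate 4 of both WT groups and not of the KO groups.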

How the data were processed

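RNA of the WTVeh cultures was sequenced with that of the other 12 libraries. Per the submitters' processing notes and the paper's methods, the authors aligned reads with HISAT2 2.0.5 to GRCm38.p6 and deposited raw counts per gene from featureCounts 1.5.0-p3. The sources used here do not state the strand setting, so overlapping genes on opposite strands may share reads. The tables also list gene lengths, which equalled the union of exons for 98.0% of genes.

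TPM were computed over all 54532 genes. Counts of the 8 WT libraries, of the biotypes kept by the study, passed filterByExpr at 15 counts and were tested by edgeR 4.0.16 (quasi-likelihood, TMM, terms replicate and treatment) in R 4.3.3, and called above a fold of 1.2 and under an adjusted p (Benjamini-Hochberg) of 0.01, as the study did. The script was tested on simulated counts. P-values measure the spread between these samples only, and floors cover counting error only. Named genes were the markers, the most abundant genes, the ends of each list and family, the widest and narrowest spread and the smallest p, and others were chosen after their values were seen. Lists, families and members were chosen with earlier results of these data known. Promoters came from RefSeq (GRCm38.p6). DESeq2 1.42.0, other filters, scalings and lengths, and leaving out each number were alternatives. GENCODE vM21 gave exon and transcript lengths. Coordinates are those of the deposited tables. Some members of the lists and families, counted in their totals, are not reported by name here.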

Additional observations from a re-analysis of the deposited data

Results flagged for a closer look

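In 31 of 309 values examined for WTVeh (10.03%), 1 library lay so far from the other 3 that its gap to the nearest, divided by the whole range, exceeded Dixon's critical value for 4 samples at 95%. Chance gives about 1 in 20 such values, and over the 9908 protein-coding genes with a mean of 10 TPM or more it was 5.90%. The values examined include genes named for the widest spread or the smallest p, also in the contrast of replicate 4. Others were chosen after their values were seen. Such a choice can raise the share, so 10.03% does not show an excess over chance or over 5.90%. Replicate 4 was the library in question in 17 of the 31 values. That count is open to the same selection, and no explanation was tested.

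Of the immediate-early genes and genes of contractile and matrix cells, replicate 4 was high for Npas4 (126 TPM, others 9.90 to 26.7 TPM), Dusp1 (61.3 TPM, others 19.7 to 23.1 TPM), Btg2 (81.1 TPM, others 47.8 to 52.5 TPM), Acta2 (301 TPM, others 85.5 to 108 TPM) and Wisp2 (448 TPM, others 40.4 to 109 TPM). Of the copies of ribosomal protein genes and predicted genes, it was high for Rps12-ps3 (163 TPM, others 0.563 to 2.98 TPM), Rpl9-ps6 (104 TPM, others 3.02 to 4.98 TPM), Gm6793 (107 TPM, others 0.931 to 1.30 TPM), Gm11808 (158 TPM, others 6.35 to 11.1 TPM) and Gm21887 (66.9 TPM, others 0 to 1.73 TPM). It was low for Gapdh (58.6 TPM, others 1188 to 1403 TPM), Gm10076 (76.8 TPM, others 710.1 to 828 TPM), Hmgb1 (53.0 TPM, others 173 to 179 TPM), Hnrnpa3 (45.3 TPM, others 197 to 222 TPM) and Sumo2 (44.3 TPM, others 153 to 171 TPM). Of the list sums, that of interneurons was low in replicate 4 (1283 TPM, others 2121 to 2283 TPM) and that of other brain regions was high (29.98 TPM, others 17.1 to 18.8 TPM).

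Replicate 2 was high for the 3 myelin genes Mbp (79.7 TPM, others 10.3 to 16.8 TPM), Mobp (13.5 TPM, others 0.750 to 2.48 TPM) and Mag (12.9 TPM, others 0.732 to 1.91 TPM), and low for Cdh5 (25.9 TPM, others 33.1 to 34.4 TPM). Replicate 1 was high for the 3 macrophage genes Mrc1 (24.1 TPM, others 0.141 to 0.463 TPM), Stab1 (33.7 TPM, others 0.435 to 5.67 TPM) and Cd68 (73.7 TPM, others 17.8 to 27.2 TPM), and for Vtn (110.1 TPM, others 70.0 to 70.5 TPM) and Foxc2 (8.17 TPM, others 6.43 to 6.71 TPM). Replicate 3 was high for the young-neuron gene Dcx (65.6 TPM, others 31.8 to 35.8 TPM), for Aplp1 (1044 TPM, others 858 to 884 TPM) and for Ldha (519 TPM, others 478 to 482 TPM). In replicate 3, Slc12a5 took 85.5% of its family (others 83.4 to 83.6%) and Slc2a3 71.2% (others 46.3 to 49.4%).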

How the results depend on the processing

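No paired analysis was possible because the replicate number is itself the term that was tested and WTVeh was otherwise described alone. Over all alternatives, 269 mean TPM values of named genes moved by more than 1 SD and 4579 by less, as did 76 and 242 family shares. Leaving out 1 library of 4 cannot move a mean by 1 SD. These settings thus count among the smaller moves whatever the data, and the larger number does not measure stability. The number of protein-coding genes at 1 TPM or more in every library was 13192, and 13223 to 13324 without 1 library, where it could only stay or rise. The 308 list genes detected became 251 at a threshold of 5 TPM. The number of genes with an SD above 1 was 1100, 618 to 1160 without 1 library, with the lowest without replicate 4, and 195 over genes with a mean of 10 TPM or more, where fewer genes were examined. The replicate term called 4147 genes, 6867 at an adjusted p under 0.05, 4491 by DESeq2, and 1350 to 4960 without 1 number, with 2718 without replicate 3 and 1350 without replicate 4. In the contrast of replicate 4, 1924 higher and 1324 lower genes became 1186 and 850 in a fit on all 16 libraries, an alternative chosen after seeing the data as were the longest transcript as length, the fit on all biotypes and 15 counts in every library. That fit on all 16 libraries includes those labelled KO and takes the same replicate effect for both genotypes. The cause of the change was not tested.

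Called log2 fold changes of replicate 4 that turned sign on all 16 libraries were those of Bcan (0.041), Bhlhe22 (0.19), C3 (-0.75), Clu (-0.11), Gabra2 (0.33), Gap43 (0.036), Grin3a (0.11), Mag (0.18), Slc17a6 (0.13), Tubb2b (0.16) and Tubb3 (0.14), and none of them passed the test there. Without replicate 2 those of Lcn2 (0.019) and Steap4 (0.10) turned (-2.08 to 0.019 for Lcn2 and -1.70 to 0.10 for Steap4 over the numbers left out), and without replicate 3 that of C3 (-0.90), which was -0.90 to 1.40 over them. Of the other values for named genes under an alternative, 89 in the contrast and 180 in the replicate term lost their call, 69 and 101 gained one, and 1968 and 2095 kept their side of the threshold. Counting error alone gives a median CV of 4.35% over genes with a mean of 1 TPM or more, and 1 library per number limits what WTVeh alone can show.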

Other observations

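Among genes used as references in expression studies, Actb, for β-actin, had 2359, 2379.9, 2144 and 2418 TPM in replicates 1, 2, 3 and 4, Sdha, for a subunit of succinate dehydrogenase, 303, 296, 299 and 283 TPM, and Tbp, for the TATA-binding protein, 6.68, 6.43, 7.50 and 6.26 TPM, and none of the 3 was called in the replicate term or in the contrast of replicate 4. Of the 15 genes of this list, 6 were called in the term (3 without replicate 4), which has a background of 27.7%. Besides Gapdh, Ppia, for cyclophilin A, fell to 321 TPM in replicate 4, against 892, 1008 and 879 TPM in replicates 1, 2 and 3 (log2 fold change -1.13, SE 0.13, adjusted p = 6.17e-05 by edgeR). Tfrc, for the transferrin receptor, had 59.7, 85.4, 219.6 and 161 TPM and B2m, for the light chain of class I molecules, 719, 886, 462 and 458 TPM, so that these 3 were not level over the libraries.

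Among genes for known targets of Li, Gsk3a, for glycogen synthase kinase 3α, had 124, 126, 134 and 126 TPM in replicates 1, 2, 3 and 4 and Impa1, for inositol monophosphatase, 35.8, 35.0, 35.3 and 33.4 TPM. Of 11 genes 9 were at 1 TPM or more in all 4 libraries. In the replicate term, where the background is 27.7%, 1 of the 9 tested was called. This was Gsk3b with 103, 84.9, 130.2 and 113 TPM (adjusted p = 0.00986 by edgeR), and 0 were called without replicate 1 or without replicate 3, 2 without replicate 2 and 0 without replicate 4. Fbp1 and Fbp2, for fructose bisphosphatases, stayed below 1 TPM in every library.

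Transcripts of both sexes were present in every library. Xist, the RNA that silences one X chromosome in female cells, had 64.0, 36.4, 108 and 87.8 TPM in replicates 1, 2, 3 and 4, and the Y-linked Ddx3y 31.1, 27.0, 21.6 and 21.9 TPM, Eif2s3y 27.6, 32.2, 16.1 and 22.6 TPM, Kdm5d 5.27, 4.71, 3.77 and 4.13 TPM and Uty 3.69, 3.45, 2.94 and 3.03 TPM. Replicate 3 was lowest for the 4 Y-linked genes and highest for Xist, which was lowest in replicate 2.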
